A study of Mus musculus with 6 samples.

Results

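Mononuclear phagocytes, the macrophages and dendritic cells of the tissue, were followed in the caput epididymis through 31 of their marker genes, taken by gene symbol from a table of 24346 genes. The caput is the first stretch of the epididymal duct, where sperm begin to mature. Its RNA was sequenced in 6 libraries from 8-week-old mice, 3 labelled wild-type and 3 labelled Adgrg2-/Y (KO), males in which the X-linked adhesion receptor gene Adgrg2 was targeted. The labels give neither the design of the allele nor whether each library came from a separate animal, and p-values reflect spread between libraries only, some of which can be technical. Of the 31 genes, 27 had a mean of at least 1 FPKM (a level of fragments corrected for gene length and library size) and were tested among 12799 genes. The other 4, Cd163, Itgax, Ly6c2 and Cd86, were below that level.

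In the epididymis, phagocytes lie beneath and between the epithelial cells and in the connective tissue around the duct. Those between the epithelial cells carry the fractalkine receptor CX3CR1 and send processes towards the lumen. They are known for clearing dying epithelial cells and for tolerance to sperm antigens, which appear only after immune tolerance to self has been set. Macrophages depend on signals through the receptor CSF1R, and the transcription factor PU.1, the product of Spi1, governs much of their gene expression.

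No phagocyte gene passed the test for a difference between the genotypes. Most of them lay outside the wild-type range in each KO library, as did most of all tested genes, below or above it. Levels were low in KO replicate 1, high in KO replicate 2 and lowest in KO replicate 3. The median of the 27 tested genes was 0.722 of the wild-type mean in KO replicate 1, 1.48 times it in KO replicate 2 and 0.388 of it in KO replicate 3. Cd68, Lgals3 and Cd14 stood apart, with their highest levels in KO replicate 3. Limma called 0 of the 27 at an adjusted p under 0.05, and 0 had an unadjusted p under 0.05. Among all tested genes 0.25% were called (0.172% lower and 0.0781% higher in the KO), and 17.5% had an unadjusted p under 0.05. The log2 change was negative in 22 of the 27 (81.5%), against 48.4% of all tested genes, and none was called in either direction. It was negative in 18 with quantile normalization and in 16 with array weights, where the median log2 change was -0.0689 in place of -0.294. Adjusted p-values of the members ran from 0.299 for Mrc1 to 0.984 for Trem2.

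The order of the KO libraries was shared by most of the list. In 18 of the 27 genes (66.7%), KO replicates 1 and 3 lay below all 3 wild-type libraries while KO replicate 2 lay above all 3. That pattern was picked out after the values were seen. It was found in 516 of all 12799 tested genes (4.03%). Taken one library at a time, KO replicate 1 lay below the wild-type libraries in 24 of the 27 genes, against 36.7% of all tested genes, and above them in 0, against 40.2%. KO replicate 2 lay above them in 24, against 37.7%, and below in 2, against 42.2%. KO replicate 3 lay below them in 23, against 42.4%, and above in 3, against 48.9%. Among the KO libraries, replicate 2 was the highest in 24 genes and replicate 3 the lowest in 23, against 25.1% and 39.4% of all tested genes. The members are transcripts of overlapping sets of cells and share libraries, so these counts are not independent observations. In bulk tissue, fewer cells of a type and less RNA per cell cannot be told apart.

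**Figure D1:**
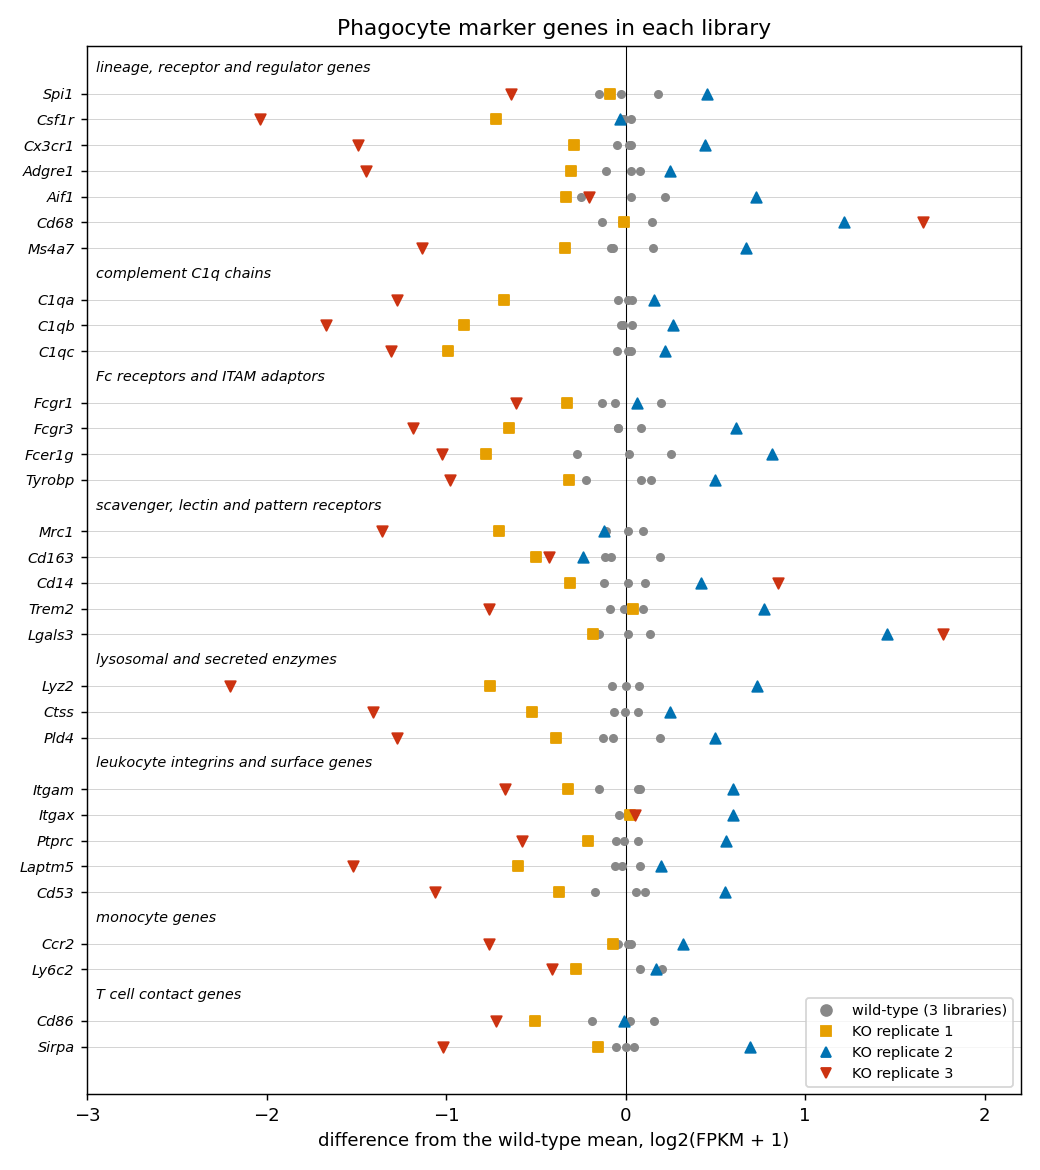
Difference of each library from the wild-type mean for the 31 phagocyte marker genes, on the log2(FPKM + 1) scale, grouped by role; grey circles are the 3 wild-type libraries. KO replicate 3 (red) lies left of the wild-type libraries and KO replicate 2 (blue) right of them for most genes, while Cd68, Lgals3 and Cd14 have KO replicate 3 on the far right.

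Spread differed between the genotypes. On the log2 scale the members had a median SD of 0.0974 in wild-type and 0.827 in the KO, against 0.0669 and 0.284 over all tested genes. Normalized counts summed to between 18136864 and 21455984 per library. Summed FPKM was 691563 to 714360 in wild-type against 732542, 645173 and 931769 in KO replicates 1, 2 and 3. Folds of single libraries were not rescaled to an equal total. The median of all tested genes was 1.01, 0.986 and 1.04 times the wild-type mean in KO replicates 1, 2 and 3. KO replicate 3 stood apart across the transcriptome, with a mean correlation over genes of 0.894 with the wild-type libraries, against 0.960 and 0.971 for the other KO libraries. Adgrg2 itself was at 808, 850 and 841 FPKM in wild-type, against 410, 324 and 328 FPKM in KO replicates 1, 2 and 3, lower in each (log2 change -1.24, adjusted p = 0.0579); which part of the gene was altered is not known here, so its remaining RNA is no full check of the labels. Without KO replicate 3, the median log2 change of the members went from -0.294 to 0.0564, and 11 of the 27 changes turned from negative to positive. Without KO replicate 2 the median was -0.735, against 0.0362 over all tested genes. None of the 27 passed after adjustment in that fit, which called 18 of 12798 genes. KO replicate 2 was the library in which most of the 27 were high, so their median falls when it is left out.

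Wild-type levels gave a clear order at the top of the list. Lyz2, the lysozyme of macrophages and other myeloid cells, was highest at 57.7, 51.8 and 54.7 FPKM, and Ctss, the lysosomal protease cathepsin S that trims the invariant chain of MHC class II, followed at 51.3, 46.7 and 48.7 FPKM. Lyz2 lay above Ctss, and Ctss above C1qa, in every wild-type library. C1qb and C1qc, at means of 37.6 FPKM each, overlapped. At the other end, Cd86, Cd163, Itgax and Ly6c2 did not exceed 1.06 FPKM in any wild-type library.

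Among the lineage and receptor genes, Csf1r and Mrc1 had all KO libraries on the low side. Csf1r (chromosome 18, 61105572 to 61131139, mm10) encodes the receptor for the growth factors CSF1 and IL-34. It was at 14.47, 13.98 and 14.04 FPKM in wild-type against 8.18, 13.8 and 2.70 FPKM in KO replicates 1, 2 and 3. All 3 KO libraries thus lay below all 3 wild-type libraries, KO replicate 2 only just. The mean went from 14.2 ± 0.267 to 8.24 ± 5.56 FPKM (SD, n = 3), with a log2 change of -0.93 ± 0.48 (SE, limma adjusted p = 0.355). Mrc1, the mannose receptor of tissue-resident macrophages, was the other tested member whose genotypes did not overlap, at 3.048, 2.821 and 2.501 against 1.32, 2.485 and 0.478 FPKM, with KO replicate 2 only just below wild-type replicate 3. Its log2 change was -0.73 ± 0.31 (adjusted p = 0.299). These 2 of 27 genes (7.41%) stand against 16.1% of all tested genes with every KO library below wild-type, and no member had every KO library above, against 16.8%. Cd163, a haemoglobin scavenger receptor and one of the 4 untested genes, also had each KO library below wild-type, at 0.111, 0.333 and 0.166 against 0.487, 0.795 and 0.452 FPKM. With no filter on low values its log2 change was -0.39 with an unadjusted p of 0.0128 and an adjusted p of 0.193.

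Cx3cr1, the fractalkine receptor of the phagocytes between epithelial cells, was at 7.73, 7.81 and 7.35 FPKM in wild-type against 6.08, 10.7 and 2.06 FPKM in the KO. The wild-type libraries lay inside the KO range, between replicate 1 and replicate 2. Adgre1, which encodes the macrophage antigen F4/80, was at 4.21, 3.73 and 4.39 FPKM against 3.13, 5.07 and 0.872 FPKM. Ms4a7, a membrane protein of macrophages, had the same order, with 0.740, 1.73 and 0.328 times the wild-type mean in KO replicates 1, 2 and 3. Their log2 changes of -0.45, -0.50 and -0.27 did not pass the test (adjusted p = 0.601, 0.517 and 0.74). Without KO replicate 3 the changes were 0.0785 for Cx3cr1, -0.0284 for Adgre1 and 0.168 for Ms4a7. Spi1, the gene of PU.1, was at 3.48, 2.88 and 2.57 FPKM against 2.73, 4.42 and 1.54 FPKM, so KO replicate 1 lay inside the wild-type range. Aif1, which encodes the actin-binding protein IBA1, was at 5.30, 7.72 and 6.64 FPKM against 4.94, 11.4 and 5.50 FPKM, where KO replicate 3 was within the wild-type range as well.

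**Figure D2:**
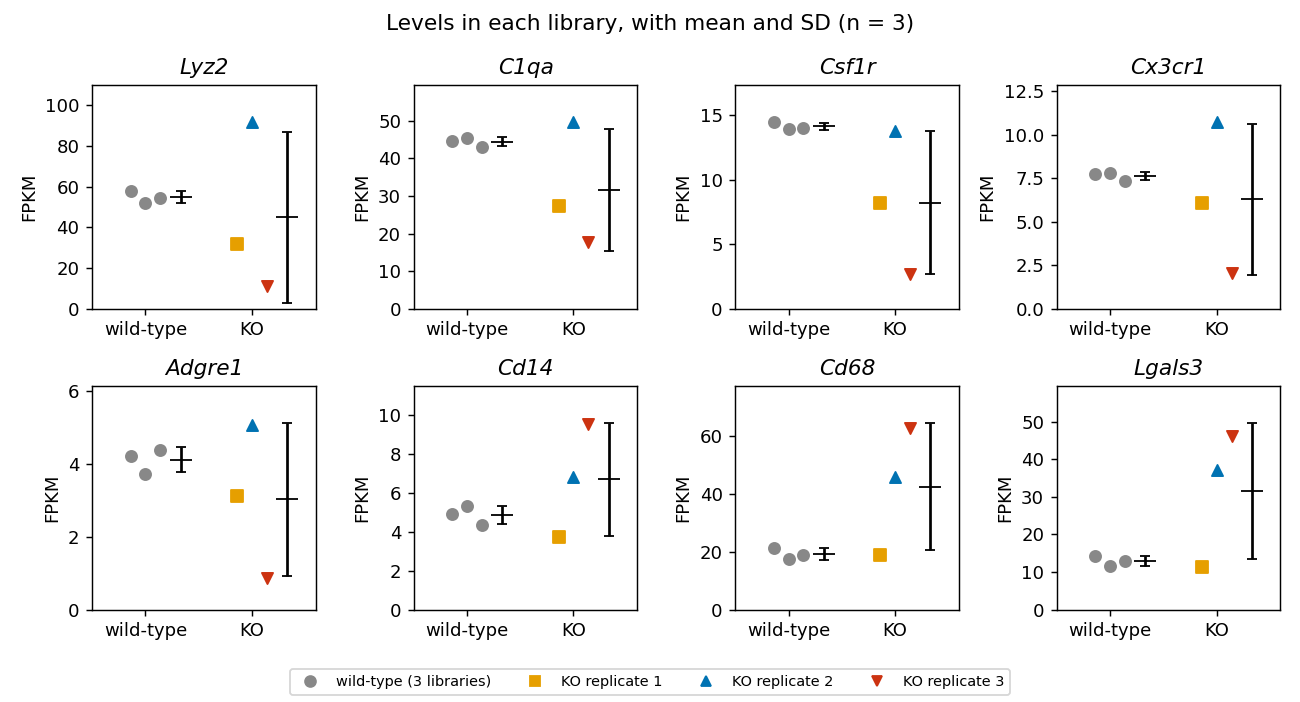
FPKM of 8 phagocyte marker genes in each library, with the mean and SD of each genotype (n = 3) beside the points. Lyz2, C1qa, Csf1r, Cx3cr1 and Adgre1 are lowest in KO replicate 3 and highest among KO libraries in KO replicate 2, whereas Cd14, Cd68 and Lgals3 are highest in KO replicate 3.

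The chains of complement C1q, the molecule that starts the classical complement pathway and tags dying cells for uptake, are made mainly by macrophages and lie side by side on chromosome 4. C1qa (136895916 to 136898844, mm10) was at 44.7, 45.5 and 43.0 FPKM in wild-type against 27.4, 49.6 and 17.8 FPKM in the KO. C1qb (136880126 to 136886200) was at 37.0, 37.3 and 38.6 against 19.7, 45.4 and 11.1 FPKM. C1qc (136889801 to 136892936) was at 36.4, 37.9 and 38.4 against 18.4, 43.9 and 14.6 FPKM. The chains were low in KO replicate 1, above wild-type in KO replicate 2 and low in KO replicate 3. Their log2 changes were -0.60 ± 0.34, -0.77 ± 0.46 and -0.69 ± 0.38 (SE, adjusted p = 0.392, 0.407 and 0.38). Without KO replicate 2 the change of C1qc was -1.15 with an unadjusted p of 0.000274 and an adjusted p of 0.0716, the lowest adjusted p of C1qc in any fit. The ratio of C1qa to C1qb was 1.209, 1.22 and 1.115 in wild-type against 1.392, 1.092 and 1.598 in the KO libraries.

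Of the Fc receptors and the adaptors that signal for them through ITAM motifs, 3 of 4 had the same order of libraries. Tyrobp encodes the adaptor DAP12, which serves TREM2 among others, and was at 29.9, 28.7 and 23.0 FPKM in wild-type against 21.5, 38.6 and 13.2 FPKM in the KO. Fcer1g, the common gamma chain of Fc receptors, was at 14.3, 16.9 and 11.5 against 7.80, 25.5 and 6.43 FPKM. Fcgr3, an activating receptor for IgG, was at 5.61, 6.24 and 5.63 against 3.35, 9.458 and 2.001 FPKM. In each of these genes the wild-type libraries lay between KO replicates 1 and 3 on the low side and KO replicate 2 on the high side. Fcgr1, the high-affinity IgG receptor, did not exceed 1.87 FPKM in any library and in KO replicate 2 lay inside the wild-type range. None passed (adjusted p from 0.484 to 0.712). Spans of Csf1r, Cx3cr1, Adgre1, Fcgr3, Mrc1, Cd163, Ctss and Laptm5 overlap annotated small or long non-coding RNAs or pseudogenes, and without the strand setting of the counting their reads cannot be separated.

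Enzymes of the lysosome had the same order. Lyz2 was at 31.9, 91.7 and 11.1 FPKM in KO replicates 1, 2 and 3, against the wild-type mean of 54.8 ± 2.94 FPKM (SD, n = 3). Its log2 change was -0.74 ± 0.69 (SE, adjusted p = 0.559), and -0.0119 without KO replicate 3. Its paralog Lyz1 had the same order, at 4.54, 4.54 and 4.52 against 3.95, 8.52 and 1.44 FPKM, and how reads that fit both were counted is unknown, so the values of both are uncertain. Ctss was at 33.8, 58.2 and 17.8 FPKM in the KO. Pld4, an endolysosomal nuclease of phagocytes, was at 7.54, 6.12 and 5.85 against 4.70, 9.54 and 2.08 FPKM. All 3 enzymes were thus below wild-type in 2 KO libraries and above it in KO replicate 2.

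Most genes carried by leukocytes in general had it as well. Ptprc, which encodes the leukocyte antigen CD45, was at 1.457, 1.595 and 1.381 FPKM in wild-type against 1.14, 2.65 and 0.659 FPKM in the KO. Laptm5, a lysosomal membrane protein of blood-derived cells, was at 12.8, 14.2 and 13.1 against 8.48, 15.46 and 4.005 FPKM. Cd53, a leukocyte tetraspanin, and Itgam, the integrin chain CD11b, had 0.253 and 0.458 of the wild-type mean in KO replicate 3 and 1.66 and 1.74 times it in KO replicate 2. Sirpa, whose product receives the CD47 signal that restrains phagocytosis, was at 5.98, 6.48 and 6.24 against 5.49, 10.7 and 2.57 FPKM. Trem2, a lipid-sensing receptor of macrophages, was at 5.87, 10.4 and 2.94 FPKM in the KO, and KO replicate 1 was within the wild-type range of 5.27 to 6.14 FPKM. Itgax, the integrin chain CD11c, was at 0.398, 0.379 and 0.336 FPKM in wild-type against 0.397, 1.08 and 0.420 FPKM in the KO, the highest being again KO replicate 2.

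Transcripts of recent monocytes were scarce. Ccr2, the chemokine receptor with which monocytes leave the bone marrow, was at 1.101, 1.123 and 1.023 FPKM in wild-type against 0.982, 1.598 and 0.227 FPKM in the KO. Ly6c2 did not exceed 0.526 FPKM, or 5.87 normalized counts, in any library and was listed at 0 in KO replicate 3, and like the Fc receptor genes it has close paralogs, so its values are uncertain. Cd86, a costimulatory ligand for T cells, was at 0.876, 1.06 and 0.622 against 0.300, 0.831 and 0.119 FPKM. Of genes used to define conventional dendritic cells, Xcr1 reached at most 0.125 FPKM, Clec9a 0.26 FPKM and Flt3 0.258 FPKM in any library. The transcription factor genes Zbtb46 and Irf8 were higher. Zbtb46, known from conventional dendritic cells, was at 3.31, 3.49 and 3.51 against 4.12, 3.92 and 2.82 FPKM (adjusted p = 0.862). Irf8, which other leukocytes also use, was at 3.40, 3.72 and 3.85 against 13.5, 7.95 and 3.20 FPKM (adjusted p = 0.363). Neither had the shared order, since KO replicate 1 was their highest library.

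Cd68, Lgals3 and Cd14 departed from the shared order. Cd68 (chromosome 11, 69664213 to 69666170, mm10), a lysosomal glycoprotein, was at 21.4, 17.4 and 18.9 FPKM in wild-type against 19.0, 45.9 and 62.6 FPKM in KO replicates 1, 2 and 3. Lgals3 (chromosome 14, 47373860 to 47386167), which encodes galectin-3, was at 14.25, 11.49 and 13.003 against 11.2, 37.1 and 46.2 FPKM. Cd14, the co-receptor for bacterial lipopolysaccharide, was at 4.89, 5.30 and 4.37 against 3.72, 6.82 and 9.52 FPKM. KO replicate 1 was near or below wild-type for all 3 genes, and KO replicates 2 and 3 were above wild-type. Log2 changes were 0.96 ± 0.41, 1.01 ± 0.50 and 0.32 ± 0.29 (SE, adjusted p = 0.3, 0.342 and 0.552). Without KO replicate 1, Cd68 (1.44, adjusted p = 0.0244) and Lgals3 (1.61, adjusted p = 0.0129) passed the threshold, in a fit that called 567 genes in all. Over all fits their adjusted p ran from 0.0244 to 0.636 and from 0.0129 to 0.66.

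The same values can be set as ratios of genes within a library. Ptprc itself had the shared order, at 0.446 of the wild-type mean in KO replicate 3. High ratios of Cd68 and Lgals3 in that library thus follow from the levels above and are no further evidence. Relative to Ptprc, Cd68 stood at 14.7, 10.9 and 13.7 in wild-type and at 16.6, 17.3 and 95.0 in KO replicates 1, 2 and 3. Lgals3 stood at 9.78, 7.20 and 9.41 against 9.81, 14 and 70.1. C1qa, by contrast, stood at 30.7, 28.5 and 31.2 against 23.9, 18.7 and 26.9, below wild-type in each KO library. Csf1r relative to Ptprc was 9.93, 8.76 and 10.2 against 7.15, 5.22 and 4.09, again without overlap. How many of all genes have such ratios without overlap was not computed. By FPKM alone, 16.1% of all tested genes had every KO library below wild-type. Ctss relative to Ptprc was 35.2, 29.3 and 35.3 against 29.5, 22.0 and 27.0, where the genotypes overlapped. Lyz2 relative to Ptprc was 39.6, 32.5 and 39.6 against 27.9, 34.6 and 16.8, where the genotypes overlapped. These ratios describe the libraries and were not tested; 3 libraries against 3 cannot give an exact two-sided permutation p below 0.1. Cd68, Lgals3 and Cd14 are also made outside phagocytes, galectin-3 by many epithelia. Luminal epithelial markers (6 tested, 0 called, 4 at an unadjusted p under 0.05) had a median of 1.3, 1.1 and 1.65 times the wild-type mean in KO replicates 1, 2 and 3. Krt18 was at 309, 305 and 330 against 401, 341 and 627 FPKM, and Epcam at 206, 197 and 217 against 304, 231 and 353 FPKM. Their part in the levels of these genes was not tested.

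**Figure D3:**
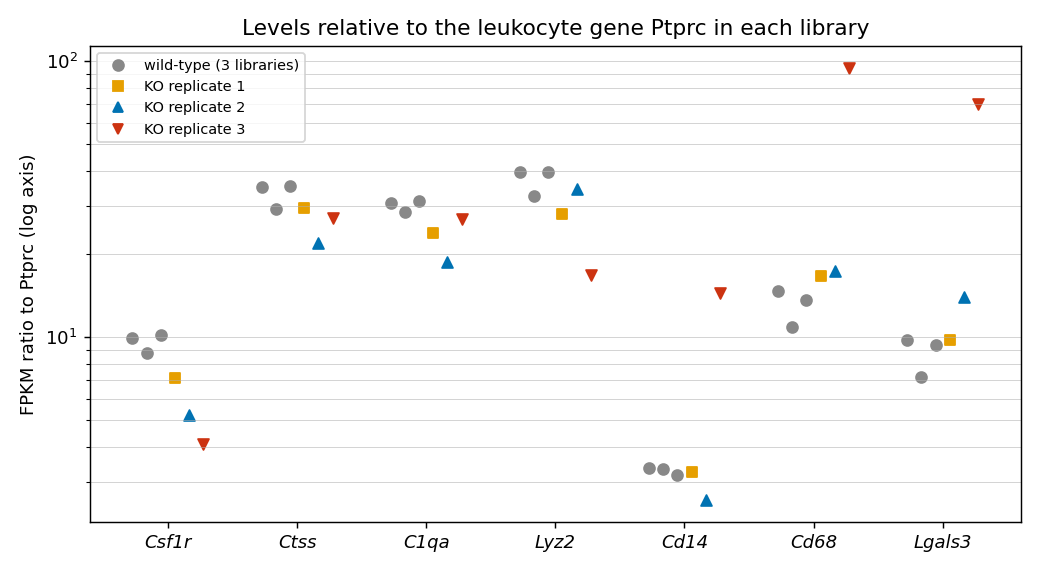
FPKM of 7 phagocyte marker genes divided by that of Ptprc in the same library, on a log axis. Cd14, Cd68 and Lgals3 are far above the other libraries in KO replicate 3 only, at 14.4, 95.0 and 70.1. Csf1r and C1qa are below wild-type in each KO library, and the genotypes overlap for Ctss and Lyz2.

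Promoter sequences of the neighbouring genes C1qb and C1qc, which had the shared order, and of Cd68 and Lgals3, which departed from it, are shown for comparison. Each runs 5′ to 3′ on the gene's strand from 250 bases before to 50 bases after the RefSeq start (build GRCm38.p6), with each GAGGAA, or TTCCTC for its copy on the other strand, in capitals. GAGGAA is the core of the purine-rich sequence that PU.1 is known to bind. The windows are chr4:136886151-136886450 (minus strand) for C1qb, chr4:136892865-136893164 (minus strand) for C1qc, chr11:69666121-69666420 (minus strand) for Cd68 and chr14:47373610-47373909 (plus strand) for Lgals3.
C1qb: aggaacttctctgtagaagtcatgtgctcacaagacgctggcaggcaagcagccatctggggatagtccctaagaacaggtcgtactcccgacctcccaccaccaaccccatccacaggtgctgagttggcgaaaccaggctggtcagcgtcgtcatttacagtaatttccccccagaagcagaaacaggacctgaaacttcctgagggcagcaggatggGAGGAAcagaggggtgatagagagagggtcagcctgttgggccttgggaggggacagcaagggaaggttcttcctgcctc
C1qc: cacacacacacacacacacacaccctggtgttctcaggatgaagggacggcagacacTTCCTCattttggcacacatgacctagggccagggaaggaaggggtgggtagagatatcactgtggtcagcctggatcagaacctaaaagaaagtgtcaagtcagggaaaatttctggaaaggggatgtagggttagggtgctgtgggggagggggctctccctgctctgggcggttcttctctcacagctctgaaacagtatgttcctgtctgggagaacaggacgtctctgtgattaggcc
Cd68: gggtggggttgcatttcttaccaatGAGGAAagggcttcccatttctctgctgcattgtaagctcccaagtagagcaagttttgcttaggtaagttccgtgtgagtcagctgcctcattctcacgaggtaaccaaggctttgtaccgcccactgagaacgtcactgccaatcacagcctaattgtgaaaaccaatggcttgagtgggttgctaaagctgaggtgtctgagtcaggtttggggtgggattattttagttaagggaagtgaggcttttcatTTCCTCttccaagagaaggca
Lgals3: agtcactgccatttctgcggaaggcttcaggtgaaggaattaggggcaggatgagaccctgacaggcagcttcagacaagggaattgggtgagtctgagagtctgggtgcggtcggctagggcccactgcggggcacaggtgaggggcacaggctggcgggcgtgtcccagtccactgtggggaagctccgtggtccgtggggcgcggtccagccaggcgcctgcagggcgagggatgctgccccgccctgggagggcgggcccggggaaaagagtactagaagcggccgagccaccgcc
The motif begins at position -30 in C1qb, on the gene's strand, and at -193 in C1qc, on the other strand, counted from the start. Cd68 holds it at -225 on the gene's strand and, as TTCCTC, at 30 bases into the transcript. These letters are not in the Lgals3 window. Windows were listed for 23 of the 31 genes, and 16 of the 23 (69.6%) held the motif, against 8446 of all 27025 genes with a window (31.3%) and 28.3% of all 32851 windows. Both Cd68, which departed from the shared order, and Fcgr3, Ctss, Pld4 and Laptm5, which kept it, were among the 16. Cx3cr1 and Lyz2, which also kept the order, were among the 7 without it. A match describes the letters of the window, not binding.

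Other genes of macrophages, on a list that holds none of the 31, had a similar order of libraries. Of 36 such genes 25 were tested and 0 were called by limma, with 2 at an unadjusted p under 0.05. Their median was 0.673, 1.27 and 0.38 times the wild-type mean in KO replicates 1, 2 and 3. In 11 of the 25 (44.0%), KO replicates 1 and 3 lay below and KO replicate 2 above wild-type, against 4.03% of all tested genes. The pattern was not limited to macrophage lists. It was in 44.4% of smooth muscle markers, 38.5% of phagocyte ligands and 36.4% of genes for the uptake of dying cells, but in no fibroblast or endothelial marker. Cd74, the invariant chain of MHC class II, was at 116, 119 and 104 against 76.0, 125.2 and 73.7 FPKM and thus had the shared order. Of the dendritic cell list 6 of 16 genes were tested and 0 called (Cd24a had an unadjusted p of 0.00817). The most expressed, Cd24a at 93.3, 92.9 and 93.0 against 152, 121 and 197 FPKM and Itgae at 9.47, 8.97 and 9.41 against 10.7, 12.6 and 8.85 FPKM, are also expressed outside dendritic cells.

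MHC class II genes, which present antigen on phagocytes and on other cells, differed among themselves. The chains that hold the peptide were high in KO replicate 2 and low in KO replicate 3. H2-Aa was at 34.6, 35.9 and 33.5 FPKM in wild-type against 36.6, 62.9 and 23.5 FPKM in the KO. The median of the 7 tested genes was 1.06, 1.48 and 0.652 times the wild-type mean in KO replicates 1, 2 and 3. H2-Ab1 and H2-Eb1 were at 1.77 and 1.48 times the wild-type mean in KO replicate 2 and at 0.542 and 0.575 of it in KO replicate 3. Genes of the peptide-loading factor H2-M had only part of this. H2-DMa was at 0.88 and 0.823 of the wild-type mean in KO replicates 2 and 3. H2-DMb1 was at 1.84 and 1.08 times it in the same libraries. H2-DMb2 was at 59.2, 60.8 and 61.2 against 80.4, 16.5 and 11.7 FPKM. None of the 7 tested members was called (1 at an unadjusted p under 0.05).

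Ligands that feed or attract phagocytes differed among themselves in their direction. Il34, a ligand of CSF1R known from keratinocytes and neurons, was at 28.2, 26.4 and 29.7 FPKM in wild-type against 8.91, 6.30 and 2.86 FPKM in the KO. Every KO library lay below every wild-type library, including KO replicate 2, in which most phagocyte genes were high. Its log2 change was -2.15 ± 0.33 (SE, unadjusted p = 0.000589, adjusted p = 0.0855), short of the threshold. Csf1, the other ligand of that receptor, was at 8.59, 9.83 and 9.33 against 8.52, 10.3 and 7.80 FPKM (adjusted p = 0.789). Cx3cl1, the ligand of CX3CR1, was at 28.5, 27.8 and 29.8 against 22.5, 32.4 and 58.6 FPKM (adjusted p = 0.643). Ccl2, which draws monocytes through CCR2, did not exceed 0.779 FPKM. Limma called 0 of the 13 tested genes of this list of 22, and Il34 alone had an unadjusted p under 0.05. The most expressed were Tgfb1 at 57.2, 60.0 and 59.9 against 91.4, 39.5 and 32.1 FPKM and Cxcl14 at 20.3, 19.8 and 20.3 against 22.5, 42.2 and 95.7 FPKM.

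Genes for the uptake of dying cells had a list median of 0.904, 1.12 and 0.313 times the wild-type mean, with 10 of 11 changes negative, 0 calls and 1 at an unadjusted p under 0.05. That gene was the receptor kinase Mertk, at 6.83, 5.64 and 6.07 against 3.43, 5.35 and 1.75 FPKM (unadjusted p = 0.0463, adjusted p = 0.277). Mfge8, a bridging protein also made by the epididymal epithelium in the mouse, was at 4997, 5327 and 5188 against 4925, 1783 and 1618 FPKM, and Gas6, a ligand of MERTK, at 63.6, 61.0 and 61.3 against 37.7, 60.3 and 9.08 FPKM. The phagocyte oxidase list had a median of 0.782, 1.37 and 1.13 times the wild-type mean over 5 genes, 0 called and 0 at an unadjusted p under 0.05, with Cyba at 18.9, 17.5 and 20.2 against 18.3, 32.4 and 21.3 FPKM. Of 15 tested genes of ITAM and PU.1 signalling, 0 were called, 5 had an unadjusted p under 0.05 and the median was 1.14, 1.22 and 1.04 times the wild-type mean. Inpp5d, the phosphatase SHIP1, was at 72.2, 80.3 and 81.1 against 54.8, 15.8 and 11.6 FPKM, and Blnk, an adaptor, at 16.6, 15.1 and 17.2 against 24.1, 30.0 and 57.4 FPKM. Neither had the order of the phagocyte genes. Of 12 inflammatory mediators 3 were tested, 0 were called and 0 had an unadjusted p under 0.05. Tgfb1, given above, was the abundant one, Il6 was listed at 0 in every library, and Ptgs2 was at 0.932, 1.18 and 0.992 against 1.968, 1.597 and 0.0531 FPKM.

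Markers of other cell types also differed between the KO libraries. In KO replicate 3, the median was 0.0794 of the wild-type mean for 9 smooth muscle markers, 0.0401 for 8 endothelial markers, 0.0621 for 6 fibroblast markers and 0.172 for 6 basal cell markers, all below the 0.388 of the phagocyte genes. In KO replicate 1, fibroblast markers were at 0.384 of wild-type, while smooth muscle, endothelial and basal cell markers were at 0.831, 1.02 and 1.03. In KO replicate 2 the medians of these 4 lists lay between 0.844 and 1.08, beside 1.48 for the phagocyte genes. The shared order of the phagocyte genes appeared in 4 of the 9 smooth muscle markers (44.4%) and 1 of the 6 basal cell markers. None of the fibroblast or endothelial markers had it, against 4.03% of all tested genes. Summed FPKM of the fibroblast list was 465 to 533 in wild-type against 188, 414 and 37.4 in the KO, with Dcn at 218, 191 and 182 against 55.2, 157 and 15.8 FPKM and Col1a2 at 88.1, 82.3 and 80.8 against 33.9, 74.6 and 4.83 FPKM. Of the muscle genes, Actg2 was at 1676, 1911 and 1898 against 2018, 306 and 176 FPKM and Acta2 at 254, 272 and 250.5 against 192, 248.7 and 20.5 FPKM. Of the endothelial genes, Egfl7 was at 41.3, 41.4 and 40.3 against 42.1, 33.6 and 30.8 FPKM and Emcn at 19.7, 17.1 and 16.7 against 18.2, 10.2 and 0.229 FPKM. The basal keratins Krt5 and Krt14, with wild-type ranges of 44.4 to 48.1 and 36.7 to 41.3 FPKM, were at 51.2, 71.3 and 7.34 and at 47.4, 75.03 and 7.28 FPKM in the KO. No marker was at 0 in every library in these 4 lists, none of their genes was called, and 2 fibroblast markers and no other had an unadjusted p under 0.05. The part of these cells in the phagocyte values was not tested.

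**Figure D4:**
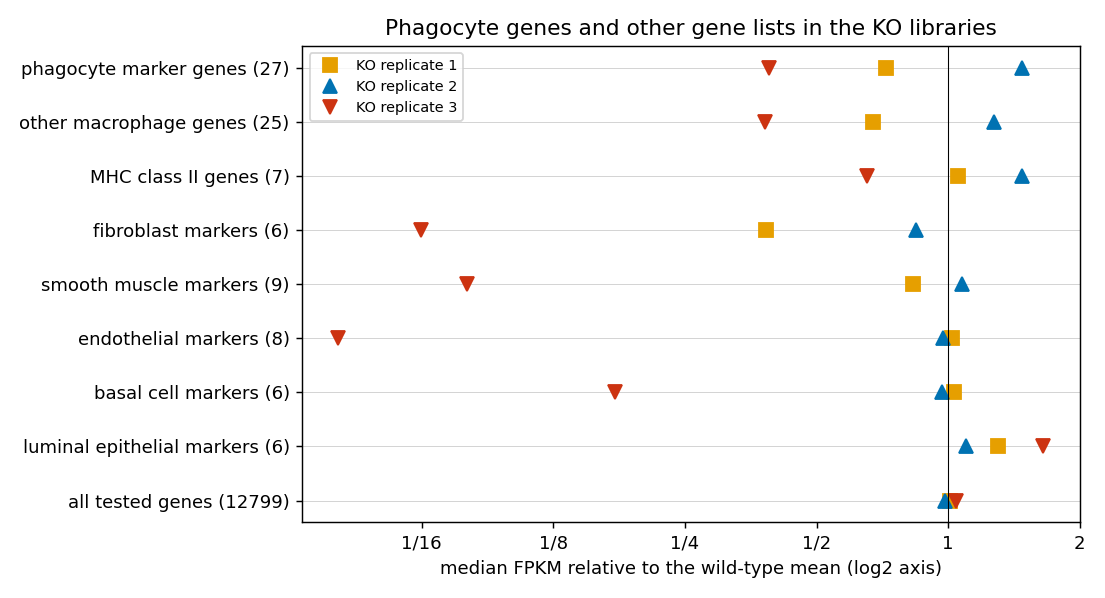
Median FPKM relative to the wild-type mean in each KO library, on a log2 axis, for the tested genes of each list (number in brackets). Phagocyte and other macrophage genes are at 0.722 and 0.673 in KO replicate 1, 1.48 and 1.27 in KO replicate 2 and near 0.38 in KO replicate 3, where fibroblast, smooth muscle, endothelial and basal cell markers are lower still.

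Few markers of other blood cells were abundant, Klrb1c and Hba-a1 most of all. Of the lymphocyte lists, B and plasma cell markers summed to 1.23 to 1.41 FPKM in wild-type against 1.58 to 1.75 FPKM in the KO, with none reaching the level for testing and Pax5 at 0 throughout. Among T and NK cell markers, Cd3e reached at most 1.58 FPKM, and the list sum of 142 to 151 FPKM in wild-type but 194, 45.6 and 25.9 FPKM in the KO was mostly Klrb1c, at 128, 136 and 139 against 183, 31.5 and 18.7 FPKM, with Thy1 next at 9.38, 9.10 and 7.84 against 6.51, 8.60 and 1.23 FPKM. Klrb1c stood alone in this, since other genes of NK and cytotoxic T cells on that list were low. Ncr1, Nkg7, Gzmb and Cd8a reached at most 0.222, 0.859, 1.21 and 0.0725 FPKM in any library. Mast cell markers summed to 2.59 to 3.51 FPKM in wild-type but 0.0799 to 1.12 FPKM in the KO. Neutrophil markers summed to 1.40 to 2.01 FPKM in wild-type but 2.94, 8.77 and 1.61 FPKM in the KO, highest in KO replicate 2 as for the phagocyte genes. This order rests on low values. In KO replicate 2, S100a8 and S100a9 were at 4.33 and 2.57 FPKM but only 15.3 normalized counts each. S100a8 was listed at 0 in wild-type replicates 1 and 2 and in KO replicate 3 and held 0.294, 1.53 and 4.33 FPKM in wild-type replicate 3, KO replicate 1 and KO replicate 2, while Mpo, Elane and Ngp were at 0 in every library. Hba-a1, a haemoglobin gene whose RNA is a sign of blood in the sample, was low in the KO. It was at 77.2, 80.6 and 68.5 FPKM in wild-type against 4.88, 17.3 and 4.67 FPKM in the KO (log2 change -3.17, limma unadjusted p = 0.000387, adjusted p = 0.0772). Hbb-bs was at 13.2 FPKM in wild-type replicate 3 and below 0.0032 FPKM in the other libraries. The order of Hba-a1 among the KO libraries, with replicate 2 highest, was that of the phagocyte genes, but each KO library was below wild-type, and the part of blood in the phagocyte values was not tested. Limma called none of these genes. In the lists described here calls were limited to 4 of 8 tested sperm transcripts, Prm1, Oaz3, Ldhc and Dkkl1, all lower in the KO; Dkkl1 was at 62.8, 58.0 and 55.7 against 8.41, 5.37 and 8.16 FPKM (adjusted p = 0.00564).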

How the data were processed

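Caput RNA was sequenced in 3 wild-type and 3 KO libraries, prepared with a stranded mRNA kit per the labels' protocols. The submitters' processing notes name TopHat2 2.1.1, Cufflinks 2.2.1 and the mm10 build; for the annotation, the strand setting, multi-mapped reads and the normalization method, the sources used here give nothing. The deposited FPKM values, and the deposited normalized counts (a signal, no longer raw counts), are the authors' normalized values, per the file headers. No depth in reads is given, so no counting intervals were computed.

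Genes averaging 1 FPKM or more were tested with limma 3.58.1 in R 4.3.3 on log2(FPKM + 1), two-sided, with a mean-variance trend, genotype as sole term and Benjamini-Hochberg adjustment across 12799 genes, threshold 0.05. That scale understates changes of low genes. Folds of single libraries are FPKM over the wild-type mean, without pseudocount. Python 3.11.15, numpy 2.4.6, pandas 2.3.3 and matplotlib 3.10.9 made tables and figures. The test was checked on simulated data.

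The 31 genes and 19 further lists were chosen with earlier results of these data known. All 31 are named. Of each other list, the rule named every called gene, otherwise the 2 most expressed tested ones, plus Csf1, Il34, Cx3cl1, Ccl2 and H2-Aa; other genes named from these lists, such as Mertk, Cd3e, Zbtb46, Irf8 and H2-DMb1, were chosen after their values were seen. Some genes that the rule covers are not reported here. Coordinates are from RefSeq (GRCm38.p6, the mm10 assembly), matched by NCBI gene ID for 24260 genes and all 31 members. Promoter windows are from RefSeq on the same build.

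Wild-type libraries differed by 3.08 to 4.72 times counting noise (chi-square over its degrees of freedom, rounded normalized counts). KO libraries differed by 73.5 to 204 times counting noise. None was counted as a repeat, but these values cannot show that each library came from a separate animal.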

Additional observations from a re-analysis of the deposited data

How the results depend on the processing

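No phagocyte gene was called under the alternatives other than leaving out KO replicate 1, where Cd68 and Lgals3 passed (range 0 to 2 over the libraries left out). The number of genes called over all genes, 32, was 16 with a pseudocount of 0.1, 101 with no filter, 17 with a minimum mean of 5 FPKM, 106 with quantile normalization, 302 with array weights, 10 with normalized counts and 2 to 645 with each library left out: 2 without any single wild-type library, and 567, 18 and 645 without KO replicate 1, 2 or 3. In the other lists, 4 genes were called, against 1, 2, 9, 12 and 1 with the pseudocount of 0.1, the higher minimum, quantile normalization, array weights and normalized counts, and 0 to 17 with a library left out. With the replicate number as a block, 1 gene was called overall and 0 in the other lists. Numbers gave no sign of a pairing of the libraries. Deviations of same-numbered libraries correlated at -0.113, 0.0318 and 0.0797, and those of differently numbered ones at -0.117 to 0.14. With 3 libraries per genotype this cannot exclude a pairing. The median log2 change of the phagocyte genes was -0.294; it ran from -0.735 to 0.0564 with a library left out and was -0.0689 with array weights, -0.231 with quantile normalization, -0.398 with the higher minimum, -0.495 with a pseudocount of 0.1 and -0.545 with normalized counts.

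Directions of single members turned as follows. Quantile normalization gave 0.023 for Spi1, 0.0149 for Itgam, 0.135 for Ptprc and 0.103 for Ccr2. Array weights gave 0.114 for Spi1, 0.0244 for Ms4a7, 0.0412 for Itgam, 0.0811 for Ptprc, 0.0445 for Ccr2 and 0.126 for Sirpa. A pseudocount of 0.1 gave -0.00638 for Trem2. With a library left out, ranges were -0.362 to 0.184 for Spi1, -0.889 to 0.0785 for Cx3cr1, -0.269 to 0.259 for Aif1, -0.735 to 0.168 for Ms4a7, -0.899 to 0.0193 for Fcer1g, -0.648 to 0.0906 for Tyrobp, -0.361 to 0.405 for Trem2, -0.833 to 0.0534 for Pld4, -0.496 to 0.138 for Itgam, -0.392 to 0.176 for Ptprc, -0.716 to 0.0908 for Cd53, -0.417 to 0.124 for Ccr2 and -0.586 to 0.269 for Sirpa. The cause was not tested. The planned count model on whole fragments was not run, because whole fragments could not be recovered from the deposited normalized counts at the share of values it requires.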
